A study of Rattus norvegicus with 12 samples.

Results

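Cells that sit under immune attack carry surface and secreted proteins that leukocytes read, and 6 genes for such proteins were followed through a cytokine challenge of insulin-secreting cells. The genes were Icam1, Vcam1, Cd40, Cd274, Cd47 and Lgals9, and each was taken from the deposited count table by its symbol, 6 of the 34034 symbols in it. INS-1E is an established clonal rat insulinoma line used as a β-cell model. All groups were cultures of this 1 line, and no other cell type was added. The study asked whether a mild exposure to the inflammatory cytokine interleukin-1β (IL-1β) changes how these cells answer a later, harsher one.

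Bulk RNA-seq was performed on 4 groups of 3 libraries each. Untreated cells received no cytokine. IL-1βlow cells were given 10 pg/ml IL-1β for 72 h, with fresh cytokine every 24 h. CYT cells were given 100 pg/ml IL-1β with 5 ng/ml interferon-γ (IFN-γ) for 16 h. IL-1βlow + CYT cells received the low dose first and, after the medium was renewed, the same CYT challenge. The libraries of a group are labelled as biological replicates, so that p-values measure the spread between these cultures of a single line.

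The 6 proteins act at the contact between a tissue cell and a leukocyte. ICAM-1 and VCAM-1 are adhesion molecules of the immunoglobulin superfamily that bind leukocyte integrins and hold the leukocyte in place. CD40 is a receptor of the tumour necrosis factor receptor family that is engaged by CD40 ligand on activated T cells. PD-L1, the product of Cd274, binds PD-1 on T cells and restrains them, galectin-9, the product of Lgals9, is a glycan-binding lectin for which TIM-3 is a known partner, and CD47 binds SIRPα on macrophages and inhibits engulfment. Genes of this kind are classical targets of NF-κB, which IL-1β activates, and of IRF1, which acts downstream of IFN-γ. In pancreatic islets they are studied because T cells and macrophages enter the islet in type 1 diabetes.

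The promoters are shown because the CYT mixture joins IL-1β, an activator of NF-κB, with IFN-γ, and 3 of the 6 genes rose under it. RefSeq's table for the rat assembly GRCr8 held the 250 bases before the transcription start of 5 of the 6 genes, and Cd40 was not matched. Capitals mark matches, on either strand, to a κB-like motif (GGNNNTTCC), a GAS-like motif (TTCNNNGAA) or an interferon-response-like motif (ISRE, TTTC, any 2 bases and TTTC). No 2 of the matches overlap. Sequences read 5′ to 3′ on the gene's strand.
Icam1 (chr8:27829595-27829844, plus strand): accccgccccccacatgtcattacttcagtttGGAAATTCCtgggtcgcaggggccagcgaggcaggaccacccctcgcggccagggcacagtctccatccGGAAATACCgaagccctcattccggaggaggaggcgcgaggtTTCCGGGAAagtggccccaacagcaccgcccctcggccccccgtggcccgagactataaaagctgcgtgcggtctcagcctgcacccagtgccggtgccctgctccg
Vcam1 (chr2:206742784-206743033, minus strand): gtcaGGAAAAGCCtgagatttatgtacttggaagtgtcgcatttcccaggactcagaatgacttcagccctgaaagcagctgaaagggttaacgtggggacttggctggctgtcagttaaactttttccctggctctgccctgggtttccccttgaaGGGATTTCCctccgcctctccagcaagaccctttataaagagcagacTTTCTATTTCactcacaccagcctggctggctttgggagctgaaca
Lgals9 (chr10:64428071-64428320, minus strand): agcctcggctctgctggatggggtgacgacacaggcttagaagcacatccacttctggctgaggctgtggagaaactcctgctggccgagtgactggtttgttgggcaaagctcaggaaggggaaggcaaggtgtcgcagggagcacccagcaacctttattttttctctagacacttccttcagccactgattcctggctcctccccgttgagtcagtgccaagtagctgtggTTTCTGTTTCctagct
Cd274 (chr1:236529982-236530231, plus strand): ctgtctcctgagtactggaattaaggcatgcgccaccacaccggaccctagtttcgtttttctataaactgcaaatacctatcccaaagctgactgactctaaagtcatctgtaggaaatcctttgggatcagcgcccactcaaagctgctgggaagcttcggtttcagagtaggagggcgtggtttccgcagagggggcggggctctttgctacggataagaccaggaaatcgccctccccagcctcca
Cd47 (chr11:64438189-64438438, minus strand): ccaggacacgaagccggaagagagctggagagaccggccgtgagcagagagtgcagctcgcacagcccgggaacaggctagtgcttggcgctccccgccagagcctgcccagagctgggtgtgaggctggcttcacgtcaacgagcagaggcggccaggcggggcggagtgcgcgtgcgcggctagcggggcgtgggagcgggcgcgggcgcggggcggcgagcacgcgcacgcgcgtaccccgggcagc

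The Icam1 window held κB-like matches that began 218 and 149 bases before the start, and a GAS-like match that began 107 bases before it. The Vcam1 window held κB-like matches that began 246 and 93 bases before the start and an interferon-response-like match at 46 bases. The Lgals9 window held 1 match, of the interferon-response-like motif, at 16 bases. No match was found in the Cd274 or the Cd47 window. Among 33469 promoter windows of this length, 15.4% held the κB-like motif, 7.67% the GAS-like motif and 3.41% the interferon-response-like motif, so that a match is a description of the letters and not a site of binding.

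Total counts ran from 15812640 to 20246806 per library. Levels are given as TMM-scaled CPM, reads of a gene relative to library size, mean ± SD over 3 libraries, and are compared within a gene only because CPM is not corrected for length. Of the 6 genes, 5 were among the 14324 tested, which required a CPM above 1 in at least 2 libraries. Cd40 met that filter only through the challenged groups, and Vcam1 did not meet it. Differences are log2 fold changes from edgeR's quasi-likelihood model, with p-values adjusted by Benjamini-Hochberg over every gene tested. To pass, a gene needed an adjusted p below 0.01. Its log2 fold change also had to exceed 0.6 in size when IL-1βlow was set against untreated cells, and 1 in all other comparisons. All 10 β-cell markers examined were detected, and their summed level was 43120 to 49950 CPM in untreated cells, 38410 to 45010 in IL-1βlow, 14050 to 14980 in CYT and 20160 to 25700 in IL-1βlow + CYT. Of 15 leukocyte markers, 6 had no count in any library, among them the pan-leukocyte gene Ptprc, and the summed level of all 15 was at most 6.68 CPM in untreated, IL-1βlow and CYT libraries and 9.81 to 11.1 CPM in IL-1βlow + CYT. Of the 4 leukocyte markers tested, Adgre1 passed as higher in CYT than in untreated cells (1.35 against 0.0191 CPM). Csf1r passed as higher in IL-1βlow + CYT than in CYT (1.43 against 0.166 CPM). In each of these comparisons the other 3 did not pass. Both genes met the filter only through groups where they were high. Cd4 averaged 2.73 CPM in CYT and 5.30 in IL-1βlow + CYT. The 7 endothelial markers summed to at most 34.9 CPM and to 12.2 to 17.1 CPM in CYT, with Tie1 at 0 throughout. Of the 3 endothelial markers tested, Kdr passed as lower under CYT, from 10.4 to 0.218 CPM, and 2 did not pass. Kdr met the filter only through groups other than CYT. The 6 fibroblast markers summed to at most 16.4 CPM and to 6.18 to 7.31 CPM in CYT, with Dcn and Lum at 0. Of the 2 fibroblast markers tested, Pdgfra passed as lower under CYT, from 14.2 to 5.77 CPM, and 1 did not pass. The 5 markers of other islet cells, mostly the glucagon gene Gcg, summed to 186.6 to 367.7 CPM in untreated cells, 156.8 to 260.3 in IL-1βlow, 25.4 to 64.9 in CYT and 74.5 to 152.2 in IL-1βlow + CYT. The part of these shifts in the results below was not tested. In bulk RNA, fewer cells that express a gene and less of its RNA per cell cannot be told apart.

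CYT raised 3 of the 6 genes, the adhesion gene Icam1, the co-stimulatory receptor gene Cd40 and the galectin gene Lgals9, whereas 10.0% of all tested genes passed as higher and 11.6% as lower. Since Cd40 was tested only through the challenged groups, its passes as higher there, here and below, cannot be weighed against the all-gene shares. The 6 genes were chosen with earlier results of these data known, so the shares are background and not a test of the set. With at least 10 counts required in every library, 2 genes passed, Icam1 and Lgals9, and Cd40 was not tested. In IL-1βlow + CYT the same 3 genes were lower than in CYT, where 5.92% of all tested genes passed as lower and 6.54% as higher, and all 3 were still above untreated cells. Cd274 and Cd47 did not pass in any comparison, and Vcam1 had 2 counts in the whole data set. After IL-1βlow alone, 0 of the 6 genes passed, against 0.433% of all tested genes. In that comparison 2 of the 6, Cd274 and Cd40, had an unadjusted p under 0.05, as did 1982 of the 14324 genes, and 0 of the 6 passed by DESeq2's Wald test or edgeR's exactTest.

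**Figure D1:**
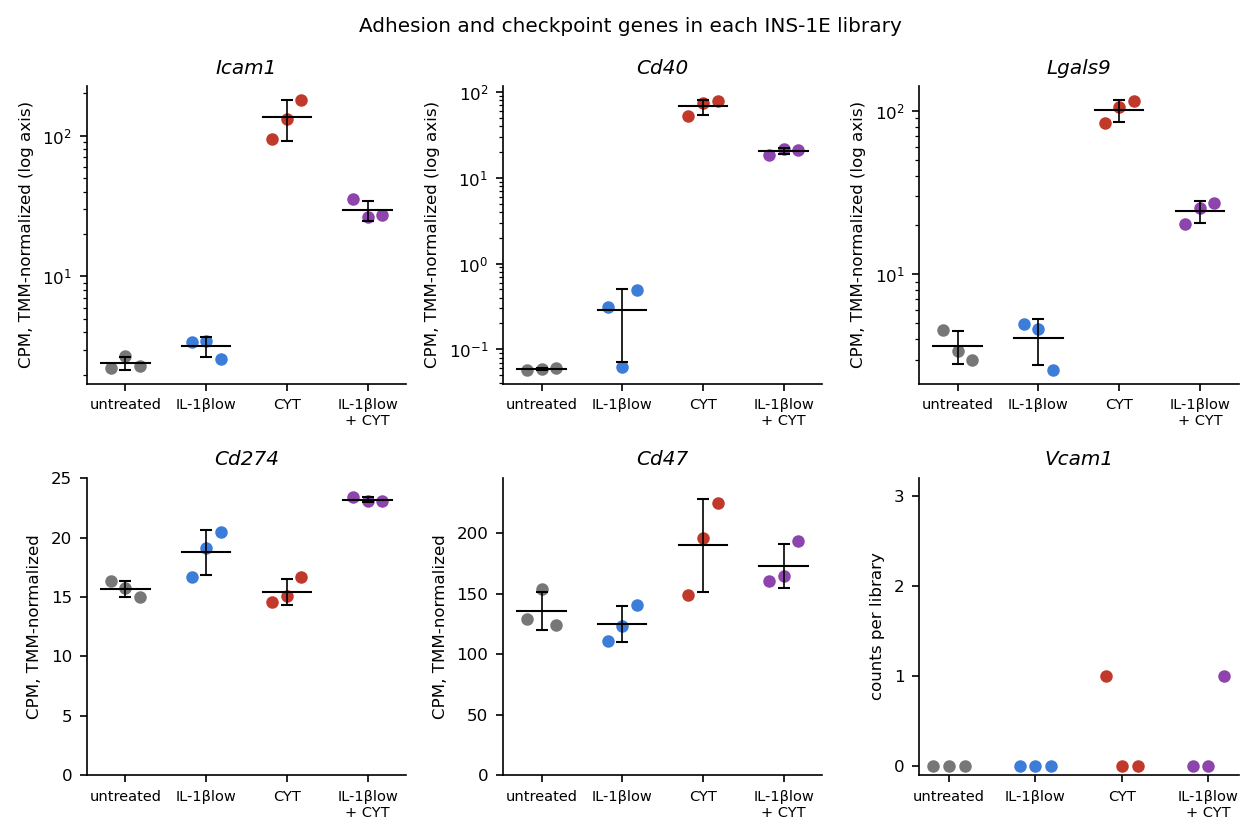
Level of each gene in the 12 INS-1E libraries by group, as TMM-normalized CPM with log axes for Icam1, Cd40 and Lgals9 and linear axes from 0 for Cd274 and Cd47, and as raw counts for Vcam1. Points are libraries in the order of replicates 1 to 3, horizontal lines are group means and bars are SD (n = 3, not drawn for Vcam1). Icam1, Cd40 and Lgals9 are highest in CYT and intermediate in IL-1βlow + CYT, and Cd274 is highest in IL-1βlow + CYT.

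Icam1 stood at 2.23, 2.72 and 2.31 CPM in the untreated libraries and at 3.44, 3.50 and 2.59 CPM after IL-1βlow. It reached 94.8, 130 and 180 CPM in CYT and 35.3, 26.5 and 27.3 CPM in IL-1βlow + CYT. Every challenged library lay above every unchallenged one, and every CYT library above every IL-1βlow + CYT library, while untreated and IL-1βlow libraries overlapped. The spread was widest in CYT, where replicate 3 was the highest and replicate 1 the lowest.

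The Icam1 means were 135 ± 43.0 CPM in CYT, 29.7 ± 4.83 in IL-1βlow + CYT, 3.17 ± 0.506 in IL-1βlow and 2.42 ± 0.263 in untreated cells. CYT raised Icam1 by a log2 fold change of 5.80 (SE 0.25, adjusted p = 1.7e-10), the 94th largest among the genes tested. Preconditioned and challenged cells were lower than challenged cells by -2.19 (SE 0.19, adjusted p = 7.0e-07) and held 22.0% of the CYT level. They stayed above untreated cells by 3.61 (SE 0.24, adjusted p = 5.5e-08) and above IL-1βlow cells by 3.22 (adjusted p = 1.8e-07). The last neighbours in the order of levels, IL-1βlow and untreated cells, were not told apart at 0.39 (95% interval -0.23 to 1.02, adjusted p = 0.537).

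Vcam1, the other integrin ligand, had 2 counts in all 12 libraries together, 1 in CYT replicate 1 and 1 in IL-1βlow + CYT replicate 3. It had 0 counts in untreated and IL-1βlow cells, which allows up to 0.0591 and 0.0577 CPM, taken as 3 counts over the group. The upper 95% Poisson limits were 0.101 CPM in CYT and 0.104 CPM in IL-1βlow + CYT. These limits cover counting error only. The challenged and unchallenged groups could not be ordered at this depth.

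Cd40 rose from near absence. The untreated libraries held 1 count each, or 0.0573, 0.0592 and 0.0608 CPM, and the IL-1βlow libraries held 6, 1 and 8 counts, or 0.308, 0.0613 and 0.494 CPM. CYT libraries held 52.6, 74.4 and 77.9 CPM, and IL-1βlow + CYT libraries 18.6, 21.6 and 21.2 CPM. The challenged libraries were separated from all others, and CYT from IL-1βlow + CYT.

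The means of Cd40 were 68.3 ± 13.7 CPM in CYT, 20.4 ± 1.61 in IL-1βlow + CYT, 0.287 ± 0.217 in IL-1βlow and 0.0591 ± 0.00175 in untreated cells. Because the untreated group had 3 counts in all, the change is given as a ratio of summed counts scaled by library size, with an exact 95% interval for counting error only. That ratio was 1158 (396 to 5617) for CYT over untreated cells (adjusted p = 2.8e-11). It was 348 (119 to 1689) for IL-1βlow + CYT over untreated cells (adjusted p = 8.1e-10) and 71.2 (43.0 to 128) over IL-1βlow cells (adjusted p = 2.4e-09). Between the challenged groups, where counts were ample, IL-1βlow + CYT differed from CYT by a log2 fold change of -1.74 (SE 0.17, adjusted p = 1.9e-06), or 29.9% of the CYT level.

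For IL-1βlow over untreated cells the Cd40 count ratio was 4.88 (1.38 to 26.3), with counts of 15 against 3. This rested on replicates 1 and 3, since replicate 2 held as few counts as an untreated library. The fit gave 2.16 (SE 0.80, 95% interval 0.45 to 3.86, adjusted p = 0.255), which did not pass.

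Lgals9 stood at 4.58, 3.37 and 2.98 CPM in untreated and at 4.97, 4.60 and 2.59 CPM in IL-1βlow libraries. It reached 83.6, 106 and 114 CPM in CYT and 20.2, 25.4 and 27.3 CPM in IL-1βlow + CYT. The order of the groups was that of Icam1, with CYT apart from IL-1βlow + CYT and both apart from the overlapping unchallenged groups.

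The Lgals9 means were 101 ± 15.9 CPM in CYT, 24.3 ± 3.70 in IL-1βlow + CYT, 4.05 ± 1.28 in IL-1βlow and 3.65 ± 0.836 in untreated cells. CYT raised the gene by 4.79 on the log2 scale (SE 0.22, adjusted p = 3.7e-10), the 133rd largest change. IL-1βlow + CYT differed from CYT by -2.06 (SE 0.19, adjusted p = 9.0e-07) and held 24.0% of the CYT level. It remained above untreated cells by 2.73 (SE 0.22, adjusted p = 3.4e-07) and above IL-1βlow cells by 2.57 (adjusted p = 8.8e-07). IL-1βlow and untreated cells were not told apart at 0.16 (95% interval -0.37 to 0.69, adjusted p = 0.785).

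The Lgals9 values are uncertain to an extent that was not measured, because in the GRCr8 annotation the gene overlaps Nos2-ps1, a pseudogene of inducible nitric oxide synthase, and the strand setting of the counting was not given in the sources used here. Nos2-ps1 had 0 counts in the untreated and IL-1βlow libraries, 34.3 ± 11.3 CPM in CYT and 3.68 ± 0.956 CPM in IL-1βlow + CYT. Nos2 itself averaged 569 ± 142 CPM under CYT, and 48.8 ± 13.7 CPM when preconditioning came first. In IL-1βlow + CYT, Nos2-ps1 thus held 10.8% and Nos2 8.59% of its CYT level, against 24.0% for Lgals9. Whether reads of these genes were counted as Lgals9 was not tested.

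Lgals5, a related rat galectin gene on the other side of Nos2-ps1 in the gene order, moved in the same direction. It had 0 counts in untreated and at most 1 count in IL-1βlow libraries, 10.8 ± 1.33 CPM in CYT and 3.22 ± 0.639 CPM in IL-1βlow + CYT. It was at least 181-fold higher in CYT and at least 55.2-fold higher in IL-1βlow + CYT than in untreated cells, counted against 3 counts over that group. Between the challenged groups it differed by -1.73 (SE 0.23, adjusted p = 5.3e-05). With the counts of both galectins summed, an alternative chosen after seeing the data, Lgals9 with Lgals5 averaged 112 ± 15.4 CPM under CYT alone and 27.5 ± 4.20 CPM under CYT after preconditioning, and no call changed.

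Cd274, the gene for the T-cell checkpoint ligand PD-L1, was at 16.3, 15.7 and 15.0 CPM in untreated and at 14.6, 15.0 and 16.7 CPM in CYT libraries. IL-1βlow libraries held 16.7, 19.1 and 20.5 CPM, and IL-1βlow + CYT libraries 23.4, 23.1 and 23.1 CPM. The IL-1βlow + CYT libraries lay above all others, the IL-1βlow libraries lay above the untreated ones, and the range of the CYT libraries included that of the untreated ones.

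The order of the Cd274 means was 23.2 ± 0.197 CPM in IL-1βlow + CYT, 18.7 ± 1.93 in IL-1βlow, 15.7 ± 0.689 in untreated cells and 15.4 ± 1.10 in CYT. CYT against untreated cells gave a log2 fold change of -0.02 (SE 0.11, 95% interval -0.26 to 0.21, adjusted p = 0.867). IL-1βlow + CYT against CYT gave 0.59 (SE 0.11, 95% interval 0.35 to 0.82, adjusted p = 4.7e-04), and against untreated cells 0.56 (SE 0.11, adjusted p = 0.0015). Both had an adjusted p under 0.01 and a fold change short of the minimum. IL-1βlow against untreated cells gave 0.26 (95% interval 0.02 to 0.49, adjusted p = 0.325), and IL-1βlow + CYT against IL-1βlow 0.31 (adjusted p = 0.081), so the upper neighbours in this order were not told apart.

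Cd274 overlaps Plgrkt, the gene of a plasminogen receptor, in the GRCr8 annotation, so its values carry the same doubt. Plgrkt stood at 29.6 ± 2.07 CPM in untreated cells, 29.6 ± 2.29 in IL-1βlow, 22.9 ± 2.55 in CYT and 34.5 ± 1.03 in IL-1βlow + CYT. Its difference between IL-1βlow + CYT and CYT, 0.59 (SE 0.11, adjusted p = 3.7e-04), was as large as that of Cd274. Whether the genes share reads was not tested.

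Cd47, which gives macrophages the signal not to engulf, was at 129, 154 and 124 CPM in untreated and at 111, 123 and 141 CPM in IL-1βlow libraries. CYT libraries held 149, 196 and 225 CPM, and IL-1βlow + CYT libraries 160, 165 and 194 CPM. All IL-1βlow + CYT libraries lay above all untreated and IL-1βlow ones, while CYT libraries overlapped with both untreated and IL-1βlow + CYT libraries.

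The Cd47 means ran from 190 ± 38.6 CPM in CYT and 173 ± 18.3 in IL-1βlow + CYT to 136 ± 15.9 in untreated cells and 125 ± 15.2 in IL-1βlow. CYT against untreated cells gave 0.48 on the log2 scale (SE 0.14, 95% interval 0.18 to 0.79, adjusted p = 0.0083), which was short of the fold change minimum. The neighbours gave -0.13 for IL-1βlow + CYT against CYT (95% interval -0.44 to 0.17, adjusted p = 0.446), 0.35 for IL-1βlow + CYT against untreated cells (adjusted p = 0.095) and -0.12 for IL-1βlow against untreated cells (95% interval -0.42 to 0.18, adjusted p = 0.707). No neighbours in this order were told apart by the test. The outer groups, CYT against IL-1βlow, gave 0.60 (adjusted p = 0.0022), also under the minimum.

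**Figure D2:**
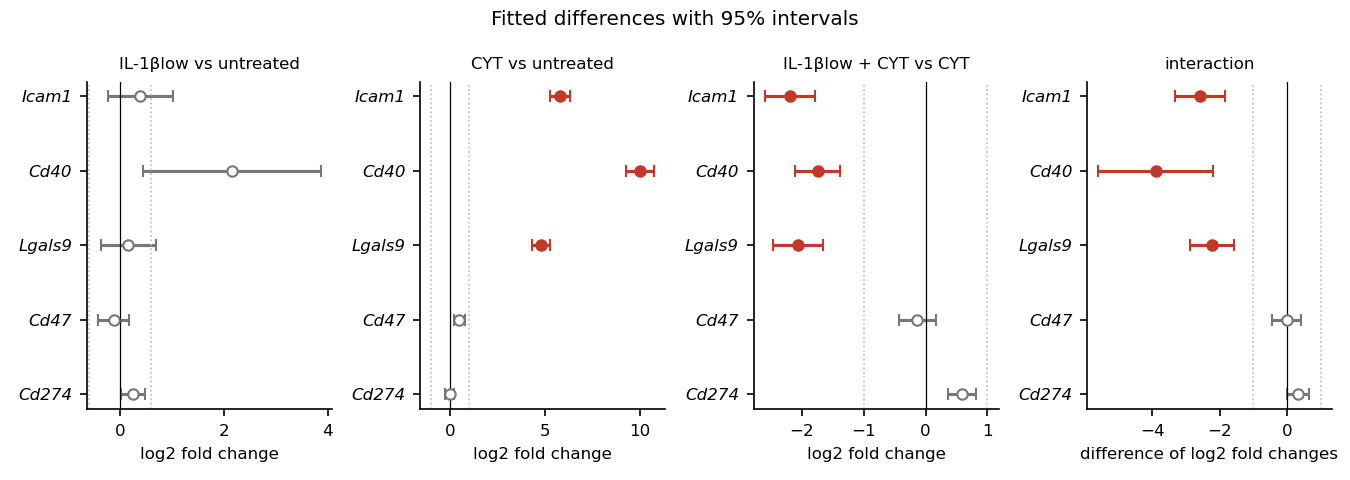
Log2 fold changes of the 5 tested genes from edgeR's fit in 3 comparisons, and the interaction, with bars for 95% intervals. Filled red points passed, open grey points did not, and dotted lines mark the fold change minimum (0.6 in the first panel, 1 in the others). The CYT change of Cd40, drawn at 10.01, rests on 3 untreated counts, and Icam1, Cd40 and Lgals9 lie at -2.19, -1.74 and -2.06 in IL-1βlow + CYT against CYT.

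Whether the low dose altered the response to the challenge was tested as an interaction, the CYT response of preconditioned cells minus that of cells without preconditioning. Of all tested genes, 5.20% passed with a smaller or more negative response and 5.48% with a larger one. The same 3 of the 6 genes passed, all with a smaller rise. The interaction was -2.58 for Icam1 (SE 0.35, adjusted p = 8.1e-05), -2.22 for Lgals9 (SE 0.31, adjusted p = 1.1e-04) and -3.90 for Cd40 (SE 0.80, adjusted p = 0.0018). The Cd40 estimate depends on the few counts of its unchallenged libraries. Without IL-1βlow replicate 3, the library with 8 counts, it was -3.35 and no longer passed (adjusted p = 0.0129). Cd274 gave 0.33 (SE 0.15, adjusted p = 0.106) and Cd47 gave -0.01 (95% interval -0.44 to 0.41, adjusted p = 0.964).

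Expressed as the share of the log2 change under CYT that remained in preconditioned cells, Icam1 kept 62.3%, Lgals9 57.0% and Cd40 82.6%. The Cd40 share again rests on 3 untreated counts. On the linear scale the 3 genes were closer together, at 22.0% to 29.9% of the CYT level. The shares are a description, and the difference between genes was not tested.

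**Figure D3:**
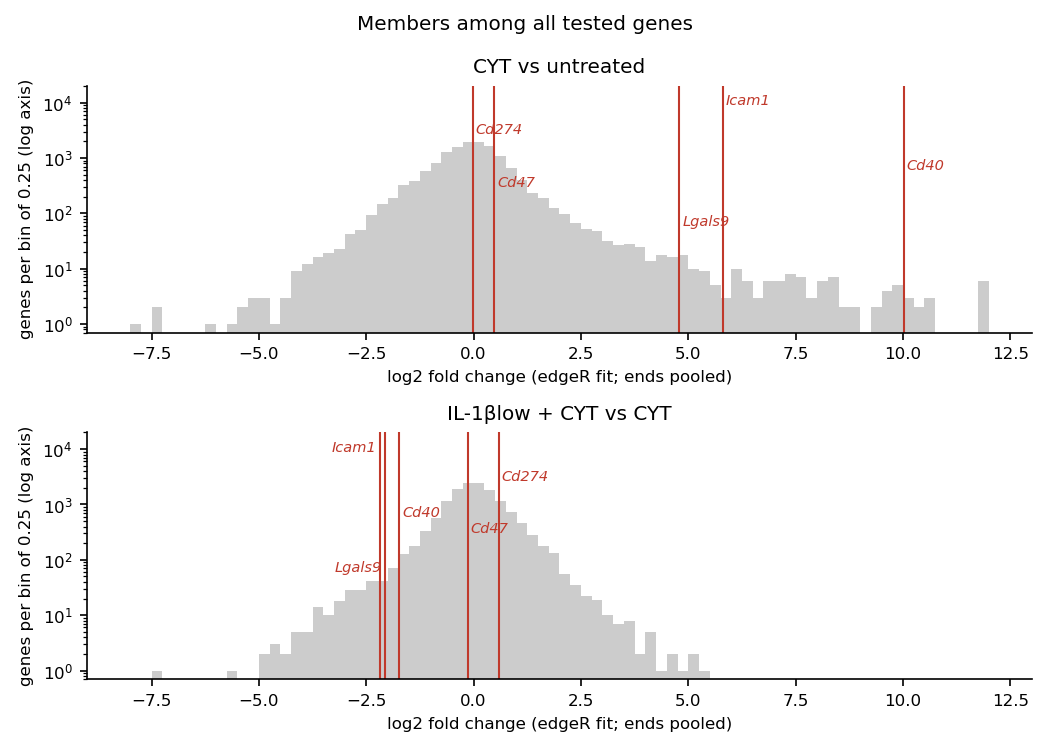
Distribution of log2 fold changes over the 14324 genes tested, in bins of 0.25 with gene numbers on a log axis, for CYT against untreated cells (top) and IL-1βlow + CYT against CYT (bottom). Red lines mark the 5 tested genes, with Lgals9, Icam1 and Cd40 in the upper tail of the top panel at 4.79, 5.80 and 10.01 and in the lower tail of the bottom panel. Cd274 and Cd47 lie at -0.02 and 0.48 in the top panel and at 0.59 and -0.13 in the bottom panel.

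The remaining comparison, CYT against IL-1βlow, shares its CYT libraries with CYT against untreated cells. Icam1, Lgals9 and Cd40 passed there too, at 5.40 for Icam1, 4.63 for Lgals9 and a count ratio of 237 (144 to 424) for Cd40, where 9.24% of all tested genes passed as higher. As background, 3.85% of tested genes passed as higher in IL-1βlow + CYT against untreated cells and 2.92% against IL-1βlow cells, and 3 of the 6 did so in each. Within CYT, replicate 3 was the highest and replicate 1 the lowest library for all 5 tested genes. How many of all tested genes had this order was not counted, so it is not a trait of these genes alone.

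Over the 12 libraries, log2 CPM of Icam1 and Lgals9 had a Pearson correlation of 0.989, Icam1 and Cd40 of 0.966 and Cd40 and Lgals9 of 0.945. Cd47 correlated with these 3 at 0.784 to 0.81, and Cd274 with the other 4 genes at -0.0387 to 0.206. These values describe 4 groups of libraries more than 12 independent points. Among 11451 other genes with a mean log2 CPM above 2, those most like Icam1 were Junb, an AP-1 subunit (0.996), Irf1, an interferon-responsive transcription factor (0.996), and Dennd2b (0.994). Those most like Cd40 were Lrp4 (0.990), the NF-κB subunit gene Nfkb2 (0.989) and the cytokine gene Lif (0.988). Those most like Lgals9 were Dennd2b and Xylt1 (both 0.995) and Stk32a (0.994). The closest to Cd47 were Yaf2 (0.955), Mff (0.949) and Parp9 (0.937), and the closest to Cd274 were Ywhae (0.930), Fhod3 (0.929) and Sox4 (0.927).

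Other genes of the same pathways were counted by list, beside the all-gene shares given above for CYT against untreated cells (10.0% higher, 11.6% lower) and IL-1βlow + CYT against CYT (6.54% higher, 5.92% lower). The lists were chosen with earlier results of these data known, so the counts and medians describe them and are not a test of enrichment. Of 26 other co-stimulatory and checkpoint genes, 12 were tested, 3 rose and 2 fell under CYT and 7 did not pass, with a median log2 fold change of 0.297 over the 12 against -0.0429 over all genes. The galectin-binding glycoprotein gene Lgals3bp rose from 245 ± 15.9 to 1166 ± 45.9 CPM (2.25, SE 0.09, adjusted p = 8.8e-11). Nectin2, which encodes a ligand of the receptors DNAM-1 and TIGIT, rose by 1.20 (SE 0.10, adjusted p = 1.1e-07). Tnfsf15, a ligand of the tumour necrosis factor family, had no count in untreated cells and was at least 36.2-fold higher in CYT at 2.12 ± 1.15 CPM. It met the filter only through CYT, so its place among the 3 that rose cannot be weighed against the all-gene share. The genes for the inhibitory ligand CD200 and for nectin-3 went the other way.

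Cd200 fell from 190 ± 18.1 to 46.1 ± 2.37 CPM under CYT (-2.05, SE 0.12, adjusted p = 3.9e-09) and was higher in IL-1βlow + CYT than in CYT by 1.00 (adjusted p = 9.8e-06). Nectin3 fell by 1.84 on the log2 scale (SE 0.18) and was higher in preconditioned and challenged cells by 1.10 (SE 0.18, adjusted p = 1.6e-04). These were the only 2 of the 12 that passed between the challenged groups, both as higher, and the median there was 0.0616 against 0.0226 over all genes. Cd276, a B7-family gene, gave 0.45 under CYT and did not pass. Pdcd1lg2, the gene for the second PD-1 ligand, and the co-stimulator gene Cd86 had 0 counts in all libraries. Cd200 overlaps Cd200l1 and Tnfsf15 overlaps an uncharacterized gene in the annotation, so their values are uncertain in the same way as those of Lgals9.

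Of 22 other adhesion genes, 13 were tested, and 3 rose and 0 fell under CYT (median 0.547 against -0.0429 over all genes). Madcam1, which encodes a ligand of the gut-homing integrin α4β7, went from 1.35 ± 0.225 CPM in untreated cells to 3.49 in IL-1βlow, 34.3 ± 4.01 in CYT and 56.1 ± 9.07 in IL-1βlow + CYT. It rose by 4.65 under CYT (SE 0.21, adjusted p = 2.4e-10) and was the only 1 of the 13 to rise after IL-1βlow alone, by 1.36 (adjusted p = 0.0099). Unlike Icam1, it was not lower in preconditioned and challenged cells, at 0.71 against CYT (SE 0.15, adjusted p = 0.0013), short of the fold change minimum. L1cam, a neural adhesion molecule gene, rose by 2.27 (SE 0.13). Icam5, a relative of Icam1, rose by 1.09 (SE 0.18) and was lower by -1.24 in IL-1βlow + CYT against CYT (SE 0.18, adjusted p = 6.0e-05), where it was the only 1 of the 13 that passed (median 0.00532 against 0.0226).

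A further list of 15 genes held mostly receptors and other binding partners of these proteins, among them leukocyte integrins. It also held the T-cell genes Cd28 and Ctla4, which are not partners of the 6. Of the 15 genes, 6 were tested. Under CYT 1 rose and 3 fell (median -1.16 against -0.0429 over all genes), and all 4 were at low levels. Itgal, whose product pairs with the β2 chain in the leukocyte integrin that binds ICAM-1, fell from 2.10 ± 0.294 to 0.0921 ± 0.0357 CPM (-4.43, SE 0.51, adjusted p = 4.1e-06) and stood at 1.41 ± 0.708 CPM in IL-1βlow + CYT (3.85 against CYT, SE 0.54, adjusted p = 4.3e-05). Itgb2, the gene of that β2 chain, had at most 5 counts in a library and was not tested. CYT libraries held 5 counts of Itgal in all, and the count ratio was 23.2 (exact 95% interval 9.65 to 73.0, counting error only) for untreated over CYT and 15.5 (6.35 to 49.1) for IL-1βlow + CYT over CYT. Itga4, the α4 integrin chain gene, fell by 1.59 on the log2 scale and Thbs1, a gene for a CD47-binding matrix protein, by 2.30. Itgal and Thbs1 averaged 0.0921 and 0.310 CPM in CYT and met the filter only through other groups. Their falls, and the median of this list, thus cannot be weighed against the all-gene values. Itgb7 rose by 1.42 (SE 0.34). Sirpa, for the CD47 receptor, was well expressed at 81.3 ± 4.64 CPM in untreated and 127 ± 5.01 CPM in CYT cells, 0.64 on the log2 scale, and did not pass. Cd40lg, Havcr2, Ctla4, Itgam and Itgax had 0 counts in all libraries. Itga4, Thbs1 and Itgb7 overlap other genes in the annotation.

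Of 22 signalling and processing genes that act on the 6, 21 were tested, and 7 rose and 1 fell under CYT (median 0.488 against -0.0429 over all genes). The NF-κB genes Nfkb2, Relb, Nfkbia and Nfkb1 rose by 3.63, 3.04, 3.00 and 1.95 on the log2 scale. Irf1 rose by 2.96 (SE 0.16), and Traf2, an adaptor of CD40 and other receptors of its family, by 1.88 (SE 0.13). Il1r1, the gene for the signalling IL-1 receptor, fell by 1.50 on the log2 scale (SE 0.18). Between the challenged groups 2 of the 21 passed, both lower in IL-1βlow + CYT, namely Irf1 at -1.10 (SE 0.15, adjusted p = 2.9e-05) and Traf2 at -1.16 (SE 0.12, adjusted p = 3.9e-06), with a median of -0.266 against 0.0226 over all genes. Of all tested genes, 5.92% passed as lower there. Also lower in that comparison, but short of the fold change minimum, were Nfkb1 at -0.88 (adjusted p = 4.3e-06) and Nfkb2 at -0.79 (adjusted p = 8.7e-06). The same held for Nfkbia at -0.56 (adjusted p = 4.3e-04) and Relb at -0.55 (adjusted p = 1.5e-04). Il1r1 lay the other way at 0.88 (adjusted p = 8.35e-04), also short of the minimum. In the interaction 3 of the 21 passed with a smaller response, Irf1, Traf2 and Nfkb2, and Il1r1 passed in the other direction. Cmtm6, whose product keeps PD-L1 at the cell surface, gave -0.45 under CYT and 0.60 in IL-1βlow + CYT against CYT (adjusted p = 5.1e-05), without reaching the minimum.

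**Figure D4:**
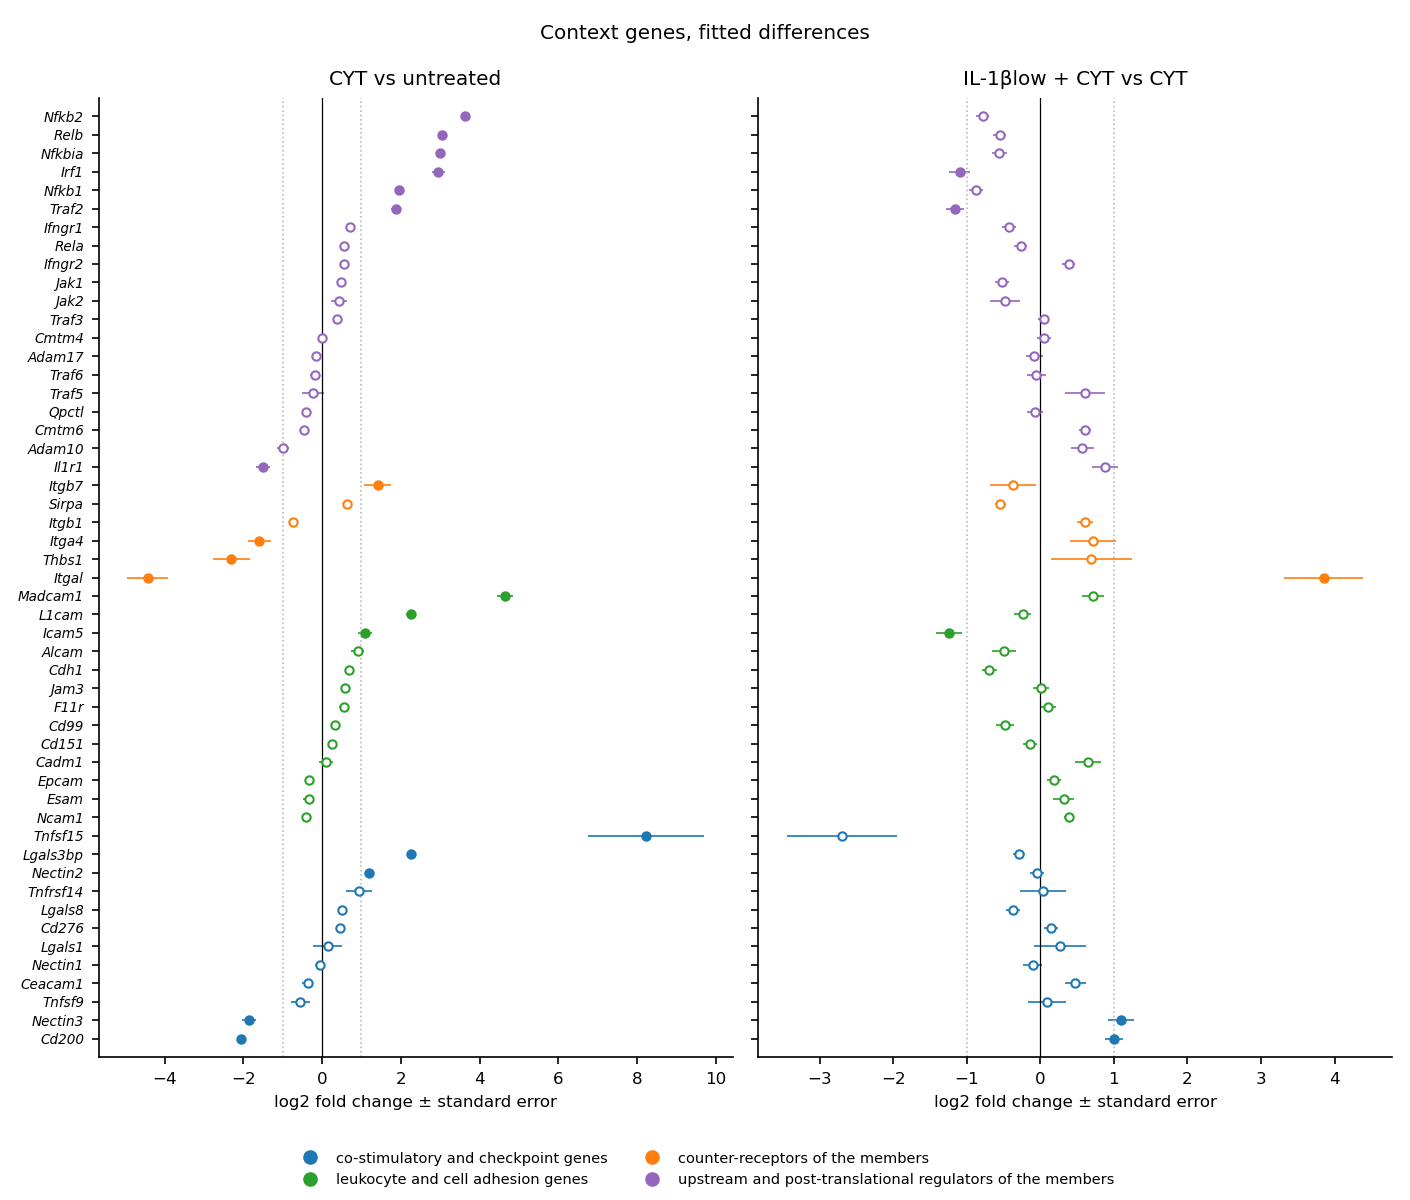
Log2 fold changes with standard errors of 51 tested context genes, by list (colours), with 1 gene of the signalling list that the text counts left out, for CYT against untreated cells (left) and IL-1βlow + CYT against CYT (right). Filled points passed, dotted lines stand at -1 and 1, and the CYT value of Tnfsf15 is a fit against 0 untreated counts. Madcam1 lies at 4.65 on the left and 0.71 on the right, and Itgal at -4.43 and 3.85.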

How the data were processed

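The deposited values are raw counts per gene symbol, which the authors obtained by rfastp trimming, Rsubread alignment to the rat build mRatBN7.2 and gene-level counting in featureCounts. The strand setting is not given in the sources used here. Overlaps with other genes, gene order and promoters come from GRCr8 tables, since no mRatBN7.2 annotation was used here. All 12 columns matched a labelled library. Between libraries of a group, chi-square per degree of freedom was 6.672 to 25.29, above counting noise, and each entered as 1 replicate.

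Analyses ran in R 4.3.3 (edgeR 4.0.16, limma 3.58.1, DESeq2 1.42.0). A gene was kept if at least 2 libraries exceeded a CPM of 1. Kept genes were scaled by TMM and tested in 1 quasi-likelihood fit over all 12 libraries (8 residual degrees of freedom, common biological coefficient of variation 0.123), with Benjamini-Hochberg adjustment. The thresholds were those of the study, which used exactTest. Fitted fold changes near 0 counts depend on the prior count, so count ratios or lower bounds stand beside the tests there. The Cd40 interaction and share are fitted values.

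Replicate numbers come from the labels, which do not say that a number marks cultures grown together. Deviations of same-numbered libraries correlated at 0.104 to 0.472 in the 9 pairs among IL-1βlow, CYT and IL-1βlow + CYT, so the numbers count as pairing there. The reported fit has no block, and the blocked fit is an alternative. Pairs with untreated libraries ran from -0.175 to 0.168.

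The alternatives were RLE size factors, DESeq2, exactTest, other count filters, only the groups compared, a replicate block, leaving out each library, and summed galectin counts. Scripts were tested on simulated counts. The 6 genes, the context lists and the thresholds were chosen with earlier results of these data known. Genes named from a list are those that passed, at most 6 a list by CYT fold change, and up to 3 others. The genes called most like a member are the 3 with the highest correlation. Genes with 0 counts, Il1r1, Plgrkt, Nos2, Nos2-ps1 and Lgals5 were named after their values were seen. A gene of the signalling list that is counted there is not reported here by name.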

Additional observations from a re-analysis of the deposited data

Results flagged for a closer look

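The CYT response of 3 genes differed between cells with and without preconditioning by the interaction test, in edgeR's quasi-likelihood fit with Benjamini-Hochberg adjustment. The difference of log2 responses was -3.90 for Cd40, -2.58 for Icam1 and -2.22 for Lgals9. Of all tested genes, 5.20% passed with a smaller or more negative response and 5.48% with a larger one. In each of the 3 genes, which had also passed between the challenged groups, all IL-1βlow + CYT libraries lay below all CYT libraries. How many of all tested genes were separated in this way was not counted. The Cd40 value rests on 3 counts in untreated and 15 counts in IL-1βlow cells.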

How the results depend on the processing

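The number of the 6 genes that passed was 0 for IL-1βlow against untreated cells under every alternative. It was 3 in the other comparisons, except 2 where at least 10 counts in every library were required, which left Cd40 untested, and 2 for the interaction without IL-1βlow replicate 3, where Cd40 gave -3.35 (adjusted p = 0.0129). Cd40 was also untested for IL-1βlow against untreated cells when only those groups were used. The interaction was not run by exactTest or with only the groups compared. In the fit with a replicate block, no call of the 6 genes changed, and 141 genes passed for IL-1βlow against untreated cells. That count was 62 in the reported fit, 138 by DESeq2, 137 by exactTest, 229 without a filter on low counts and 16 to 87 with 1 library left out.

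Directions turned only where the difference was near 0. Cd274 in CYT against untreated cells, reported at -0.02, was 0.0073 with RLE size factors, 0.0075 by DESeq2, 0.048 without a filter, 0.010 with only those groups, and -0.057 to 0.054 with 1 library left out. The Cd47 interaction, reported at -0.01, was 0.0071 with the replicate block and -0.19 to 0.10 with 1 library left out. Lgals9 in IL-1βlow against untreated cells ran from -0.024 to 0.39. The cause was not tested.

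The depth sets the limits for Vcam1 and for unchallenged Cd40, at a few counts per library.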
